A study of Mus musculus with 40 samples.

Results

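The genes described here encode 5 neuropeptide precursors made by neurons of the lateral and dorsomedial hypothalamus: Hcrt (hypocretin, also called orexin), Pmch (pro-melanin-concentrating hormone), Qrfp (pyroglutamylated RFamide peptide), Npvf (the RFamide-related peptides) and Nts (neurotensin). They were chosen by name as 5 rows of a table of 23955 genes, and all 5 were measured in all 40 libraries. The libraries came from whole hypothalamus of 36 BXD lines, which are recombinant inbred mice derived from C57BL/6J and DBA/2J, and from C57BL/6J, DBA/2J and their reciprocal hybrids B6D2F1 and D2B6F1. No mouse was treated, and age and sex are not given in the sources used here. For each BXD line, RNA of 3 to 6 hypothalami was pooled into 1 library, and the other 4 strains also had 1 library each. The line is therefore the replicate, and every p-value measures the spread between lines, which joins genotype, dissection, housing and library preparation. The study's title names a genetic screen for glucagon secretion.

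Orexin and melanin-concentrating hormone are made by separate, intermingled neurons of the lateral hypothalamus. Orexin neurons sustain wakefulness and food seeking, and melanin-concentrating hormone neurons are known for promoting feeding and rapid eye movement sleep. Qrfp is made by scattered neurons of the tuberal hypothalamus and stimulates feeding, Npvf by neurons of the dorsomedial nucleus that restrain the reproductive axis, and Nts by a wider set of lateral hypothalamic, preoptic and other neurons, including cells that act on dopamine neurons. Each precursor is cut by prohormone convertases in dense-core granules, and several of the peptides are then amidated or cyclised at an end. In bulk tissue, fewer cells of a type and less RNA per cell cannot be told apart.

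The 80 bases just before the transcript start are shown because the members differ there in base composition and in the exact motif TATAAA. They are from RefSeq (build GRCm38.p6), 5′ to 3′ on the gene's strand, with the motif in capitals, searched on both strands.
Hcrt, chr11:100762932-100763011, minus strand: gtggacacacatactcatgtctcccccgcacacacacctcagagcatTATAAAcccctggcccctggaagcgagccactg
Pmch, chr10:88090992-88091071, plus strand: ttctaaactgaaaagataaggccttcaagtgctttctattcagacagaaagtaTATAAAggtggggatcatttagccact
Qrfp, chr2:31810581-31810660, minus strand: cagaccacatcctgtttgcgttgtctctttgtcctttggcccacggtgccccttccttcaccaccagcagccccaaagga
Npvf, chr6:50654446-50654525, minus strand: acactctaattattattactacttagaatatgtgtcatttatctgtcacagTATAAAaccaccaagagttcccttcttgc
Nts, chr10:102490419-102490498, minus strand: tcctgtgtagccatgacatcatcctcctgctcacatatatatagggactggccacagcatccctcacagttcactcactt
The motif stood on the gene's own strand before Hcrt, Pmch and Npvf, beginning 33, 27 and 29 bases before the transcript start. Its letters were in neither strand of the windows of Qrfp and Nts. Only these exact letters were searched, so other TATA-like stretches, such as tatatata in the Nts window, were not counted. Of 32851 promoters in the same table, 4.75% held the motif on either strand in this window and 3.37% on the gene's own strand. G and C made up 57.5% of the Hcrt and Qrfp windows, 48.8% of that of Nts, 36.2% of that of Pmch and 32.5% of that of Npvf, against a median of 55% over all promoters.

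The first 120 coding bases of Hcrt and Pmch are shown because base composition moved with the Hcrt level over the lines (below). Runs of 5 or more G or C are in capitals; the transcripts are from GENCODE vM21.
Hcrt: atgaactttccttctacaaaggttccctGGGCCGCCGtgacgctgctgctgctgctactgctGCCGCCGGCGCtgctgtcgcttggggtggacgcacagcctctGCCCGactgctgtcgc
Pmch: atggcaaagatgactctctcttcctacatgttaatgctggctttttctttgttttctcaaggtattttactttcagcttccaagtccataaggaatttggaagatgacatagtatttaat
Over the whole coding sequence Hcrt had 10 such runs in 393 bases, the longest of 12 bases, and Pmch 2 in 498 bases. Qrfp had 10 in 375 bases, Npvf 8 in 567 and Nts 4 in 510. The longest Hcrt transcript was 60.2% G and C, more than 95.9% of the genes with a mean of at least 1 CPM (reads of a gene scaled to the size of the library). The values were 54.5% for Qrfp, 46.4% for Npvf, 41.7% for Pmch and 39.4% for Nts, the last above only 4.30% of genes.

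Library totals ran from 12.2 to 40.4 M counted reads, with a median of 23.6 M. Levels in CPM were scaled to library totals adjusted by the trimmed mean of M values (TMM). The summed level of 20 hypothalamic transcription factors was 222 to 314 CPM over the lines. Genes of neighbouring tissue varied more: 11 striatal genes summed to 295 CPM in BXD32, 391 CPM at the median and 1292 CPM in BXD90, and 9 choroid plexus genes to 35.7 CPM in BXD49 and 893 CPM in BXD32.

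**Figure D1:**
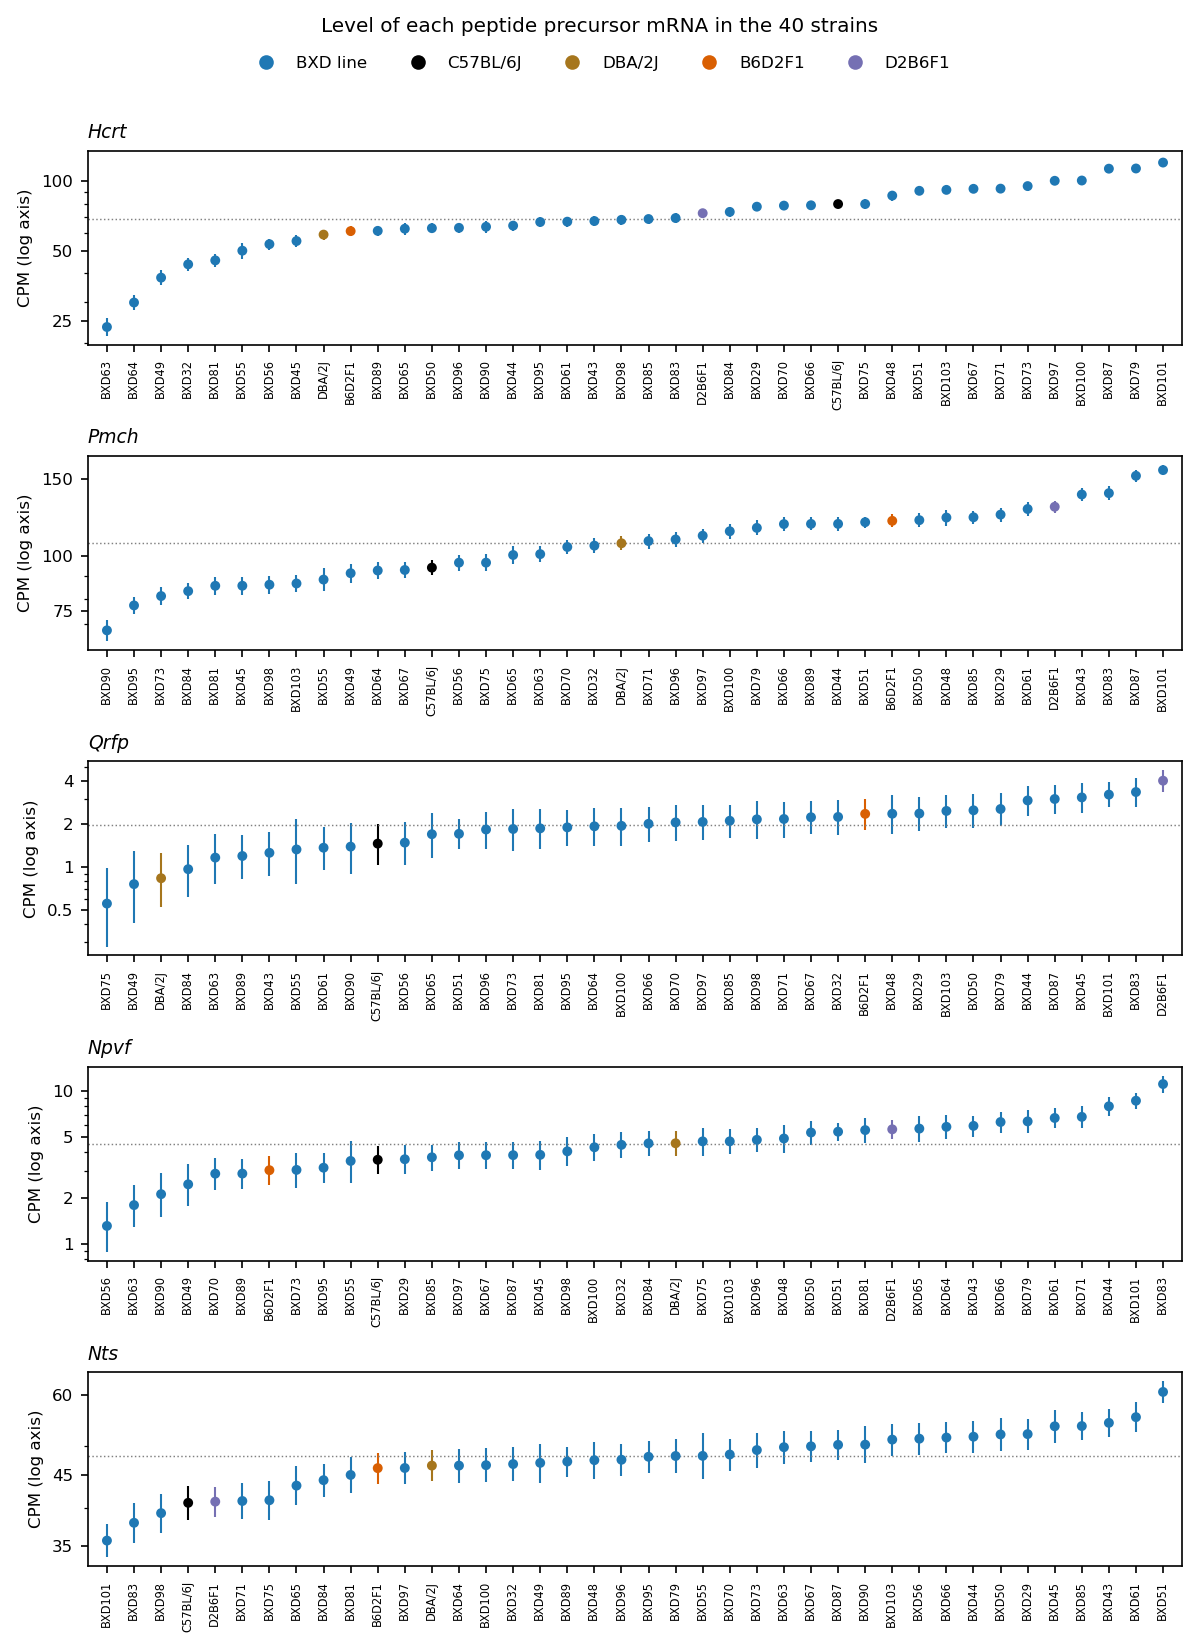
CPM of Hcrt, Pmch, Qrfp, Npvf and Nts in each of the 40 libraries, sorted within each panel on a log axis; bars are exact Poisson 95% intervals, which cover counting error only, and the dotted line is the median of the 36 BXD lines. Hcrt spans 23.5 to 120 CPM and Nts only 35.6 to 60.6 CPM over the lines, and D2B6F1 has the highest Qrfp value of the 40.

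Hcrt was lowest in BXD63 (23.5 CPM, 524 reads), at 68.4 CPM at the median of the 36 lines and highest in BXD101 (120 CPM, 3706 reads), a 5.14-fold range. BXD64 (29.9 CPM) stood next to BXD63 at the low end and BXD79 (114 CPM) next to BXD101. The SD over lines was 0.52 on the log2 scale, against 0.04 that counting alone gives, and the 95% interval of 30 of the 36 lines excluded the median (16 above, 14 below). By this SD, Hcrt was more variable than 96.5% of 14488 genes, whose median SD was 0.15. The parental levels lay inside the range of the lines: 79.7 CPM in C57BL/6J, 58.8 in DBA/2J, 60.9 in B6D2F1 and 72.8 in D2B6F1.

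Pmch ran from 67.8 CPM in BXD90 through a median of 107 CPM to 157 CPM in BXD101, a 2.32-fold range with an SD of 0.28 on the log2 scale. C57BL/6J had 94.2 CPM, DBA/2J 107, B6D2F1 120 and D2B6F1 130, the last above 32 of the 36 lines. These values depend on which deposited table is used. The second deposited table, from which whole reads could be recovered, held 5.06 times as many Pmch reads at the median (4.61 to 5.66 times over the libraries), while Hcrt, Nts and Npvf had a median ratio of 1 and Qrfp of 0.86. Only 64 of 15244 genes (0.420%) had a ratio of 2 or more over all libraries.

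In the GENCODE vM21 annotation the first Pmch exon, of 314 bases, lies outside every exon of Parpbp, a DNA repair gene on the other strand, whereas all 199 bases of the second and all 236 of the third lie inside one. The coding bases 210 to 289 around this border are shown because the annotated exons of both genes overlap from there on. Whether this overlap bears on the Pmch counts was not tested. Capitals mark the part outside Parpbp.
Pmch, coding: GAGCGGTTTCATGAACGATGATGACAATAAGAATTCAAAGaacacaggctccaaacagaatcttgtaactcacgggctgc
Parpbp itself had 13 to 45 reads per line. Whether counting used strand, and which of the tables counts these exons, is not given in the sources used here. The lines ranked much alike in both tables, with r = 0.97 for log2 CPM of Pmch over the 36 lines, and in the second table BXD90 was again lowest (369 CPM) while BXD87 (764 CPM) stood just above BXD101 (750 CPM).

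Qrfp was the scarcest of the 5, with 11 to 99 reads per line: 0.55 CPM in BXD75, 1.98 at the median and 3.36 in BXD83. Its SD over lines was 0.54 on the log2 scale, against 0.24 from counting, so that the intervals of 24 lines still held the median. DBA/2J had 0.83 CPM, C57BL/6J 1.46, B6D2F1 2.36 and D2B6F1 4.03 (95% interval 3.37 to 4.78), the last above all 36 lines.

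Npvf ran from 1.31 CPM in BXD56 through 4.50 at the median to 11.1 in BXD83, an 8.50-fold range against 6.06-fold for Qrfp. In the second table the order of these ranges turned, with 9.99-fold for Qrfp, whose lowest line had 6 reads there, and 8.52-fold for Npvf. Its SD was 0.61 on the log2 scale against 0.16 from counting, larger than that of 97.7% of the genes. B6D2F1 had 3.03 CPM, C57BL/6J 3.55, DBA/2J 4.55 and D2B6F1 5.62.

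Nts varied least, from 35.6 CPM in BXD101 through 48.2 to 60.6 in BXD51, a 1.70-fold range. Its SD of 0.16 on the log2 scale, against 0.04 from counting, lay near the middle of all genes (52.2% had a lower one). C57BL/6J (40.8 CPM) and D2B6F1 (40.9) had lower values than 33 of the 36 lines, DBA/2J had 46.6 and B6D2F1 46.2. BXD101, the lowest line for Nts, was the highest for Hcrt and Pmch.

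Per kilobase of the longest transcript, the median levels over the lines were 143 CPM for Pmch, 117 for Hcrt, 38.6 for Nts, 5.54 for Npvf and 0.68 for Qrfp. Pmch exceeded Hcrt in only 24 of 36 lines in the counts, but in all 36 in the second table, where its median was 733. Every other neighbouring pair in this order kept its order in all 36 lines in both tables.

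None of the 5 peptides separated the parental and hybrid libraries from the BXD lines. For the lines against these 4 libraries, edgeR called 0 of 16198 genes (0%), with 163 at an unadjusted p under 0.05, and DESeq2 also 0. The log2 differences, lines minus the 4, were 0.09 ± 0.25 (SE) for Hcrt, -0.07 ± 0.14 for Pmch, -0.15 ± 0.27 for Qrfp, 0.17 ± 0.30 for Npvf and 0.14 ± 0.08 for Nts, each with an adjusted p of 1.00. For the 2 hybrids against the 38 inbred libraries, edgeR called 0 of 16434 genes (0%), with 109 at an unadjusted p under 0.05, and DESeq2 also 0. Qrfp had the largest hybrid difference of the 5, 0.73 ± 0.33 (unadjusted p = 0.033, adjusted p = 1.00), and 0.29 ± 0.49 without D2B6F1. C57BL/6J against DBA/2J, and B6D2F1 against D2B6F1, have 1 library each and no test. On the log2 scale, C57BL/6J minus DBA/2J was 0.44 for Hcrt (counting SE 0.05), -0.18 for Pmch (0.04), 0.75 for Qrfp (0.39), -0.35 for Npvf (0.20) and -0.19 for Nts (0.06), so that Qrfp and Npvf lay within 2 counting SE of 0. B6D2F1 minus D2B6F1 was -0.26 for Hcrt (0.05), -0.11 for Pmch (0.03), -0.75 for Qrfp (0.22), -0.87 for Npvf (0.19) and 0.17 for Nts (0.06), all more than 2 counting SE from 0.

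Over the BXD lines, Pmch and Npvf rose together. Of the 10 pairs, this was the one that passed, with Pearson's r = 0.50 (permutation p = 0.00165, two-sided; adjusted p = 0.017 over the 10). Spearman's rho was 0.46 (adjusted p = 0.052). With BXD101 and BXD90 removed, the extremes of Pmch, r was 0.38. The other 5 pairs among Hcrt, Pmch, Qrfp and Npvf had r between 0.34 and 0.42 and adjusted p-values of 0.056 to 0.073. Nts had r between -0.31 and -0.02 with the other 4, none past the test. The slope fits over all genes used the same lines and are no separate evidence. There Npvf rose by 1.14 ± 0.30 on the log2 scale per log2 unit of Pmch (adjusted p = 0.031). This slope did not pass with striatal, thalamic and cortical levels as terms (adjusted p = 0.33) or without BXD101 and BXD90 (0.35). Nor did it with the library total (0.089). It passed under DESeq2, other scaling, no filter, all 40 libraries, the GC level, GC offsets and the second table (adjusted p = 0.0086 to 0.037). The reverse slope, of Pmch on Npvf, did not pass (adjusted p = 0.18).

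**Figure D2:**
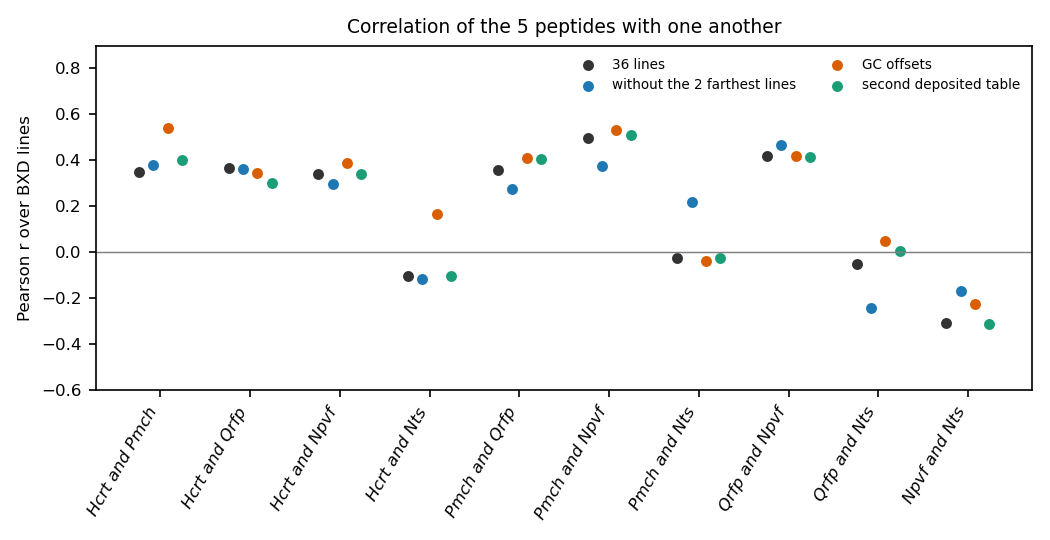
Pearson's r of each of the 10 pairs of peptides over the BXD lines, for all 36 lines, without the 2 lines farthest from the median, with a GC trend removed from each library, and from the second deposited table. The 6 pairs without Nts stay above 0 in all 4 settings, and the 4 pairs with Nts lie on both sides of 0 or below it.

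Library composition was set beside these levels. Each library has a GC level, the slope of its genes' log2 deviation from the line mean on transcript GC, per 10 percentage points of GC. It ran from -0.30 in BXD43, -0.27 in BXD32 and -0.22 in BXD63 to 0.17 in BXD67. Hcrt rose with it: r = 0.64 (permutation p = 7e-05, adjusted p = 0.00035 over 10 relations), rho = 0.67, and r = 0.74 without the 2 farthest lines. The same relation had r = -0.10 for Pmch, 0.23 for Qrfp, 0.12 for Npvf and -0.28 for Nts, none past the test. Short transcripts moved with Hcrt as well: a length level, built like the GC level, had r = -0.67 with Hcrt (permutation p = 3e-05, adjusted p = 0.0003). When a smooth GC trend was removed from each library, the SD of Hcrt went from 0.52 to 0.44 and its range to 3.98-fold, and r of Hcrt with Pmch went from 0.35 to 0.54 (permutation test, adjusted p = 0.00405).

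Of 60 relations of the 5 members with 11 marker-list levels and the library total, 1 passed: Pmch fell as the striatal level rose, with r = -0.58 (permutation p = 0.00015, adjusted p = 0.009; rho = -0.47, adjusted p = 0.065). Without the 2 lines farthest from the striatal median r was -0.43. Next came Hcrt with 8 genes of the mammillary and posterior hypothalamus (r = 0.51, adjusted p = 0.051), and Pmch with the library total (r = 0.46, adjusted p = 0.081). The posterior genes had like values with Pmch (r = 0.45, adjusted p = 0.084) and Qrfp (r = 0.44, adjusted p = 0.092). Nts with 9 clock genes followed (r = -0.43, adjusted p = 0.095). With the posterior genes Npvf also had r above 0 (0.31, adjusted p = 0.31), and Nts had r = -0.15 (adjusted p = 0.67). None of the 5 members passed the test with this list.

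**Figure D3:**
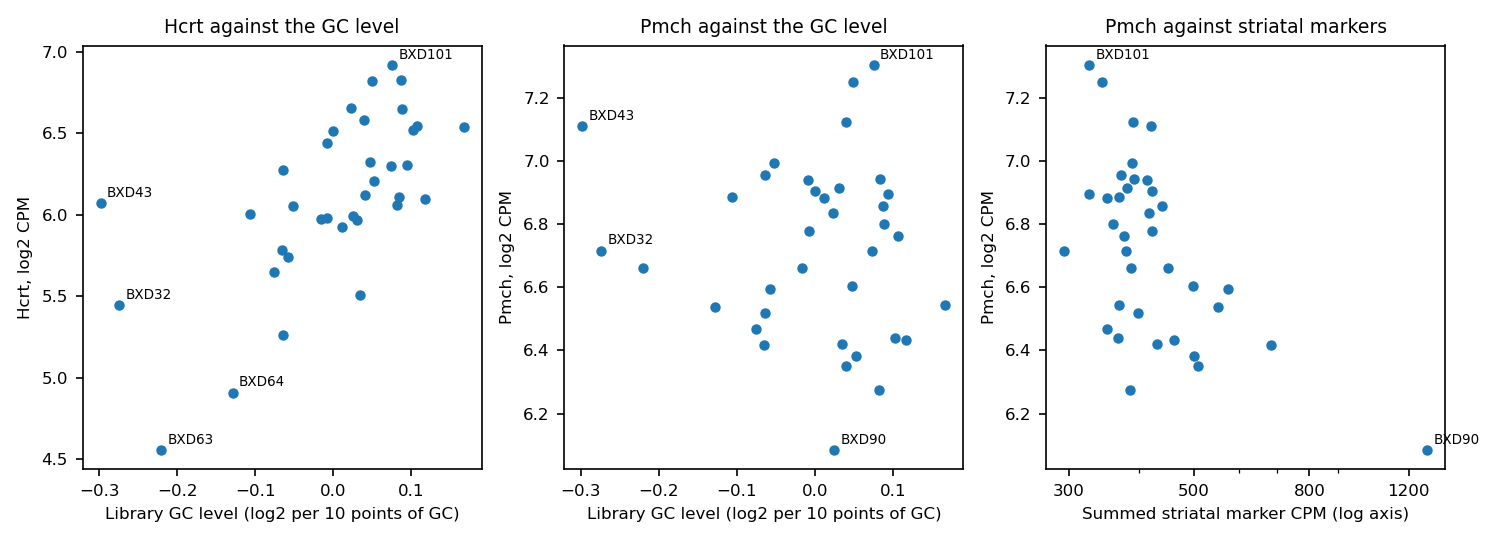
Log2 CPM of Hcrt and Pmch in the 36 BXD lines against the GC level of the library (left and middle), and Pmch against the summed CPM of 11 striatal genes on a log axis (right). Hcrt rises with the GC level (r = 0.64) and Pmch does not (r = -0.10); BXD90 has both the lowest Pmch and the highest striatal sum, 1292 CPM.

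Genes that follow Hcrt were many. In a quasi-likelihood fit with the log2 CPM of Hcrt as a slope over the 36 lines, 3492 of 16145 genes passed an adjusted p of 0.05 (21.6%), 1748 with a positive slope (10.8%) and 1744 with a negative one (10.8%). The strongest was Oxt, the oxytocin precursor, at 17.1 CPM in BXD63, 83.2 at the median and 133 in BXD100. Oxt rose by 1.06 ± 0.08 (SE) on the log2 scale per log2 unit of Hcrt (adjusted p = 7.04e-11), and r between the 2 genes was 0.92, the highest of 14487 genes compared. Pcsk1n, whose product proSAAS inhibits the convertase PC1/3, had 45.9 CPM in BXD63 and 440 in BXD67 and rose by 1.47 ± 0.13 (r = 0.90). Vgf, a granule peptide precursor, had 111 CPM in BXD63 and 350 in BXD101 and rose by 0.56 ± 0.05.

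The rest of the first 8 that rose were Ssbp4, Vps37d, Zfp771, 2810428I15Rik and Bmyc, with slopes of 0.55 to 1.10. All 8 had their lowest value in BXD63. The first 8 that fell were Bbx, Fnip1, Nr3c1 (the glucocorticoid receptor), Wdr26, Nfib, Gria2 (an AMPA receptor subunit), Atp13a3 and Pik3c2a, with slopes of -0.14 to -0.21. Of these, 7 were highest in BXD63 and Gria2 in BXD64. Genes that rose with Hcrt had a median GC of 57.5% and those that fell 43.7%, against 49.8% over all. Their median transcript lengths were 2444 and 6040 bases, against 3319.

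With the GC level as a second term, 350 of 16248 genes passed (2.15%), of which 203 were among the 3492. Oxt (0.90 ± 0.09), Pcsk1n (1.09 ± 0.13) and Vgf (0.40 ± 0.06) rose in this fit too, as did the other 5 of the first 8. Of the first 8 that fell, Bbx and Fnip1 passed, and the other 6 had adjusted p-values of 0.063 to 0.17. Leaving out BXD63 left 2288 genes, and leaving out BXD63 and BXD64 left 1364, of which 1291 were among the 3492. DESeq2 called 3671 genes (22.7%), the second table gave 3481 (22.8%), and removing a GC trend from each library gave 606 (3.75%), of which 464 were among the 3492.

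Over all genes tested, 10.8% rose with Hcrt and 10.8% fell. With the GC level in the fit 2.15% passed, and with GC offsets 3.75%. By role, 2 of 8 tested receptors rose with Hcrt, too few genes to tell from the share over all genes. They were Npffr1, the receptor of the Npvf peptides, by 0.40 ± 0.08, and Ntsr2, a neurotensin receptor of glia, by 0.17 ± 0.04. Sort1, the sorting receptor that binds neurotensin, fell by 0.10 (SE 0.03). With the GC level in the fit none of the 3 passed (adjusted p = 0.17 to 0.53), whereas with GC offsets all 3 did (adjusted p = 0.025 to 0.036). The orexin receptors had slopes of 0.13 ± 0.06 (Hcrtr1, adjusted p = 0.10) and 0.00 ± 0.06 (Hcrtr2, adjusted p = 1.00). Of 17 processing genes 6 rose: Pcsk1n, Vgf, Thop1, Furin, Chga and Qpctl. With the GC level 4 passed: Pcsk1n, Vgf, Qpct (which cyclises N-terminal glutamine) and Scg3. The convertases Pcsk1 (0.04 ± 0.05) and Pcsk2 (-0.04 ± 0.03), and Cpe (-0.03 ± 0.03), which trims the cut peptides, did not pass.

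None of 6 genes known from orexin neurons passed with Hcrt. Over all genes 21.6% did, so these 6 are too few to tell 0 from that share. Their median slope was 0.00, against -0.01 over all genes; Lhx9, a transcription factor of these neurons, had -0.20 ± 0.13 (adjusted p = 0.27) and Pdyn, prodynorphin, 0.07 ± 0.07 (adjusted p = 0.49). Of 20 hypothalamic transcription factors 12 rose (60%, against 10.8% of all genes) and none fell, with a median slope of 0.24. Otp had a slope of 0.66 ± 0.08, Hmx3 0.80 ± 0.11, Hmx2 0.82 ± 0.13 and Rax 0.96 ± 0.15. With the GC level 6 passed (30%, against 2.15% of all genes), these 4 with Nkx2-4 and Fezf1. Of 17 other tested hypothalamic neuropeptides 6 rose (35.3%, against 10.8% of all genes): Oxt, Avp (vasopressin, 0.87 ± 0.11), Sst (0.38 ± 0.06), Pomc, Agrp and Kiss1. Oxt and Avp passed with the GC level in the fit.

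Genes that follow Pmch were fewer: 381 of 16003 (2.38%), 122 with a positive slope (0.762%) and 259 with a negative one (1.62%). The first 8 that rose were Adcyap1, Cntn6, Ran, Asb4, Nap1l5, Sumf1, Six6 and Gprasp2. Adcyap1, the PACAP precursor, had 61.1 CPM in BXD75, 80.1 at the median and 116 in BXD101, and rose by 0.57 ± 0.10 per log2 unit of Pmch (adjusted p = 0.0030). Ran, a nuclear transport GTPase, had the highest r with Pmch, 0.75, with a slope of 0.19 ± 0.04, and Six6, a factor of hypothalamic development, had a slope of 0.68 ± 0.13. The first 8 that fell were Lzts1, Sh3rf2, Cd4, Chst15, Drd2, Ppp1r1b, Phactr1 and Klhl34. All 8 were highest in BXD90, the line with the least Pmch: Ppp1r1b (DARPP-32 of striatal projection neurons) had 183 CPM there and 22.5 at the median, and fell by 2.01 (SE 0.35).

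Of 11 tested striatal genes 10 fell with Pmch, against 1.62% of all genes, with a median slope of -0.77. Drd2 had -0.58 ± 0.10, Adora2a -2.38 ± 0.43, and Gpr6 did not pass (-0.66 ± 0.20, adjusted p = 0.060). With striatal, thalamic and cortical levels as terms, 1 gene was called with Pmch and none of the 381. The striatal level was itself summed from the striatal genes, so this fit cannot test their slopes on Pmch. The striatal level also moved with Pmch (r = -0.58), so that this term takes up part of the Pmch differences between lines. Without BXD90, 16 genes passed, without BXD101 106, and without both 0. These 2 lines are the extremes of Pmch, so that leaving them out also narrows its range, and the cause was not tested. Adding the library total left 88 genes. The GC level did not lower the number: 1148 genes passed with it (7.11%), and all 381 were among them. GC offsets gave 1152 (7.2%), DESeq2 577 (3.61%) and the second table, with its larger Pmch counts, 258 (1.69%), of which 241 were among the 381.

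Over all genes tested, 0.762% rose with Pmch and 1.62% fell. The receptor Qrfpr, for the Qrfp peptides, rose with Pmch by 0.39 ± 0.10 (adjusted p = 0.023, and 0.47 with marker levels in the fit). The receptor of melanin-concentrating hormone, Mchr1, had -0.15 ± 0.09 (adjusted p = 0.46). Scg2, secretogranin 2, was the 1 of 17 processing genes that rose (0.30 ± 0.08), and Pam, the amidating enzyme, had 0.20 ± 0.06 (adjusted p = 0.053). Of 4 tested genes known from melanin-concentrating hormone neurons none passed. Over all genes 2.38% did, so these 4 are too few to tell 0 from that share. Cartpt, a peptide precursor co-made in many of these neurons, had 0.44 ± 0.18 (adjusted p = 0.21, and 0.0038 with the GC level). Of 12 other lateral and dorsomedial genes Ppp1r17 (0.50 ± 0.11) and Calcr (0.37 ± 0.10) rose and Meis2 (-0.98 ± 0.25) fell. Of 20 hypothalamic transcription factors 5 rose: Six6, Nkx2-1, Sim1, Fezf1 and Rax. Foxb1, of the mammillary region, rose too (0.61 ± 0.15).

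**Figure D4:**
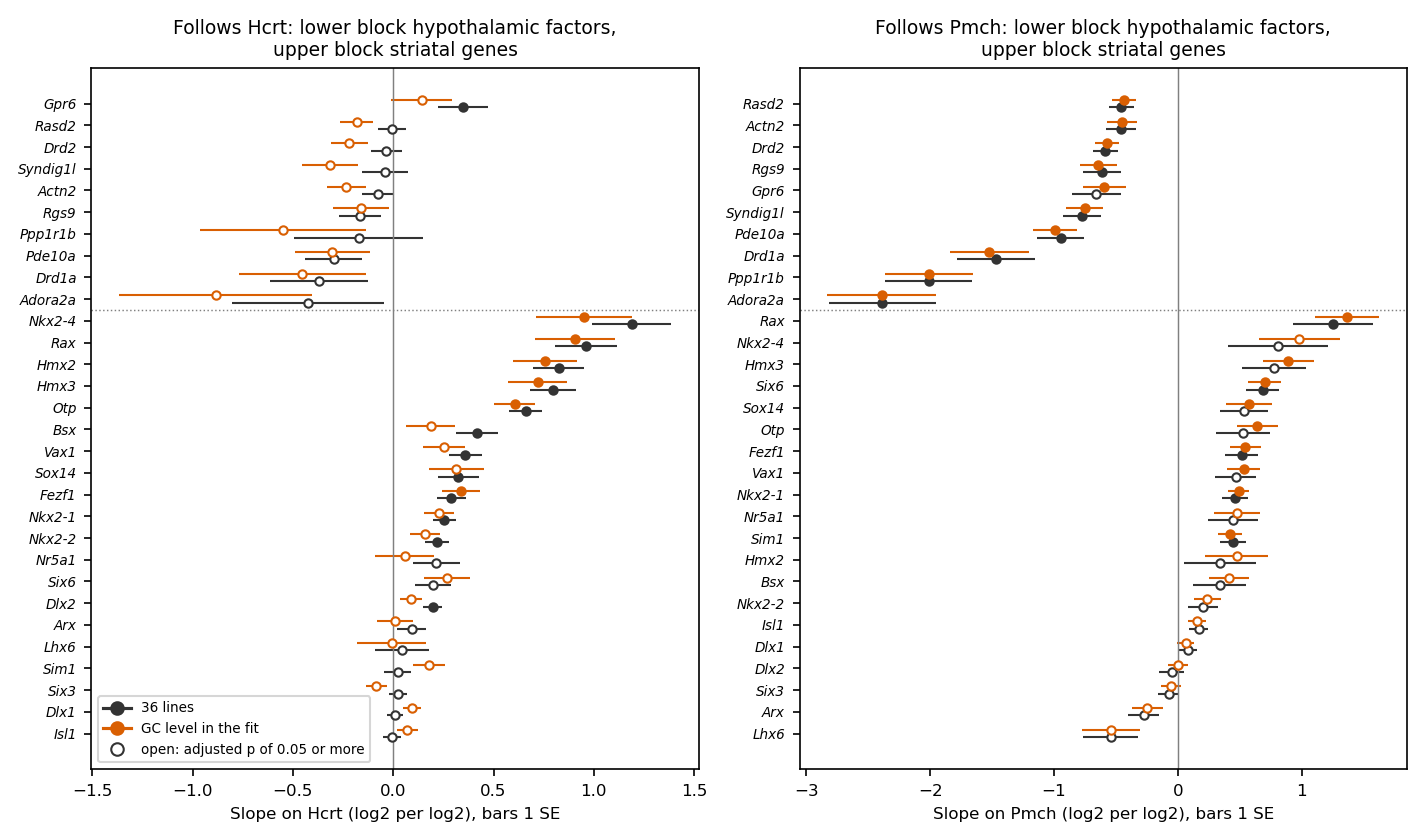
Slopes on Hcrt (left) and Pmch (right) of 20 hypothalamic transcription factors (lower block) and 10 of the 11 striatal genes (upper block), in log2 units per log2 unit, with bars of 1 SE; black, the fit over the 36 lines; orange, with the GC level as a term; filled points passed an adjusted p of 0.05. With Pmch 9 of the striatal slopes shown passed below 0 in black; with Hcrt 12 factors passed above 0 in black and 6 in orange.

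No gene passed with Qrfp (0 of 16145, 0%), Npvf (0 of 16081, 0%) or Nts (0 of 16081, 0%) in edgeR. At an unadjusted p under 0.05 there were 1361, 1742 and 1438 genes, and DESeq2 called 6 (0.0372%), 50 (0.311%) and 28 (0.174%). With GC offsets the numbers were 0, 17 (0.106%) and 1 (0.00622%). With Qrfp the smallest p belonged to Nr0b1, an orphan nuclear receptor (slope 0.56 ± 0.11, adjusted p = 0.11). It was also the most alike gene by Pearson's r over the lines (0.69), followed by Arhgap36, Cckbr, Onecut3 and Fezf1 (0.61 to 0.64). With Npvf the most alike were Prnp (0.67), Mtfr1, Tspan3, Pbx4 and Rexo2 (0.62 to 0.65), and with Nts Klhl13 (0.66), AI429214, 1600029O15Rik, Ssbp2 and Sar1b (0.60 to 0.66). The hypothalamic factors, of which none passed, had a positive slope in 17 of 20 with Qrfp (median 0.23) and in 17 of 20 with Npvf (median 0.16), but in 6 of 20 with Nts (median -0.24), against medians of 0.00 over all genes. All 8 posterior genes had a positive slope with Qrfp and Npvf and 1 of 8 with Nts, none past the test. Pcsk1, the convertase PC1/3, had a slope of 0.13 ± 0.03 on Npvf (adjusted p = 0.11), and it passed with the GC level in the fit (0.14 ± 0.03, adjusted p = 0.041). These r values are a description over 36 lines whose libraries differ in composition. With Hcrt the 5 were Oxt, Pcsk1n, Ssbp4, Vgf and Vps37d (0.87 to 0.92), and with Pmch Ran, Cntn6, Adcyap1, Sumf1 and Gprasp2 (0.69 to 0.75).

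**Figure D5:**
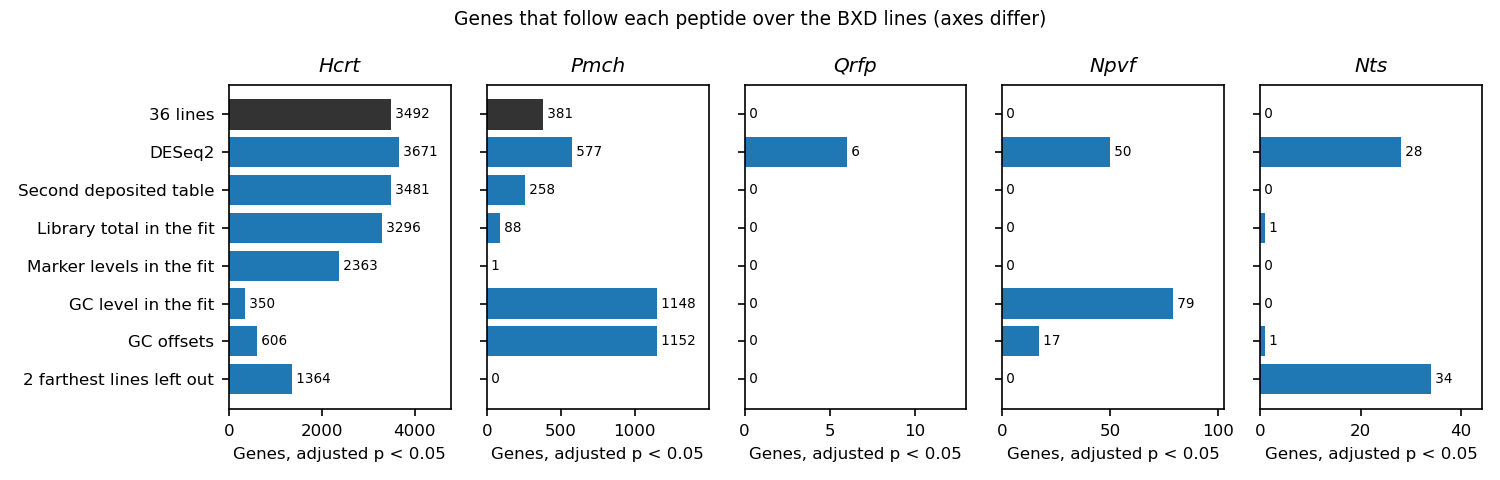
Number of genes past an adjusted p of 0.05 in the slope fit on each of the 5 peptides, for the 36 lines with edgeR (black) and under 7 alternatives (blue), with a separate linear axis for each peptide. Hcrt falls from 3492 to 350 genes with the GC level in the fit, and Pmch from 381 to 1 with marker levels in the fit and to 0 without its 2 farthest lines.

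The receptors were present in every line. At the median the level per kilobase of transcript was 54.3 CPM for Ntsr2, 42.2 for Sort1, 5.96 for Ntsr1, 5.89 for Mchr1, 4.23 for Hcrtr1, 3.14 for Hcrtr2, 2.80 for Qrfpr and 0.88 for Npffr1. Npffr2 had a median of 5 reads and did not pass the filter on low counts. Mchr1 ran from 9.79 CPM in BXD55 to 17.6 in BXD90, and Qrfpr from 4.00 CPM in BXD90 to 6.85 in BXD44. BXD90 had the least Pmch but also the highest striatal sum (1292 CPM, against 391 at the median), which cannot be told apart in 1 library. Mchr1 did not pass with Pmch over the lines. Of the neighbouring genes, 2 on each side of each member by gene order, none passed with its member. The smallest adjusted p was that of Rab5c beside Hcrt (slope 0.09 ± 0.04, adjusted p = 0.087), and the steepest positive slope that of Mgat4c beside Nts (0.62 ± 0.17, adjusted p = 0.21). With the GC level in the fit, the slope of Rab5c was -0.07 (adjusted p = 0.28) and that of Mgat4c 0.46 (adjusted p = 0.30). Adjusted p-values of separate fits also depend on how many genes pass in each.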

How the data were processed

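Per the labels' protocols, stranded mRNA libraries of pooled hypothalamic RNA were sequenced as single reads of 100 bases. Per the submitters' processing notes, TopHat2 2.0.8, HTSeq 0.5.4p3, DESeq and build mm9 were used. The authors deposited raw counts per gene, and a second table of normalized signal, counts divided by size factors, from which whole reads were recovered (100% of values within 0.01 of a whole number). edgeR 4.0.16 (R 4.3.3; TMM, filterByExpr, robust quasi-likelihood test, Benjamini-Hochberg) fitted all genes, and DESeq2 1.42.0 served as alternative. Correlations used log2 CPM (prior count 2) and 100000 permutations. Transcript GC and length came from GENCODE vM21 (GRCm38), matched for 98.3% of names and used for no mm9 position. Positions printed are those of RefSeq's GRCm38.p6 promoter table, which held all 5 members. Scripts were tested on simulated data.

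The members and the 18 gene lists were chosen with earlier results of these data known. Named were the members, list genes, the 8 genes of smallest p in each direction, the 5 most alike genes and 2 neighbours a side. A few list genes are not reported here. The labels give no batch. Intervals cover counting error only: reads carry no molecular identifiers. GC level, GC offsets (lowess span 0.3) and each line left out were added after seeing the data. Other alternatives were scaling, filter, prior count, covariates, extreme lines and the second table.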

Additional observations from a re-analysis of the deposited data

How the results depend on the processing

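No paired analysis was possible because no strain was sequenced more than once and no number links libraries. The count of genes that follow Hcrt (3492) went to 1364 without the 2 farthest lines, 350 with the GC level and 606 with GC offsets. Leaving out 1 line gave 2288 (BXD63) to 4038 (BXD43). For Pmch (381) it was 577 in DESeq2, 0 without the 2 farthest lines, 606 over all 40 libraries, 88 with the library total, 1 with marker levels, 1148 with the GC level and 1152 with GC offsets. Leaving out 1 line gave 16 (BXD90) to 551 (BXD32). From 0, Qrfp went to 6 (DESeq2), 1 (no filter) and 7 (all 40); Npvf to 50 (DESeq2), 1 (no filter), 79 (GC level) and 17 (GC offsets); Nts to 28 (DESeq2), 2 (no filter), 34 (2 farthest lines out), 4 (all 40), 1 (library total) and 1 (GC offsets). The hybrid contrast gave 1 gene without D2B6F1. Of 10 member pairs, 1 passed, against 2 without TMM, 3 over all 40, 4 in the second table, 5 with GC offsets and 0 without the 2 farthest lines. Of 60 list relations, 1 passed, against 2 without TMM, 5 over all 40, 3 in the second table, 4 with GC offsets and 0 without the 2 farthest lines. The cause was not tested, except that fewer lines were fitted where lines were left out.

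The values whose sign turned had an adjusted p above 0.05 under the alternative. Leaving out a parental or hybrid library moved the Qrfp difference of the lines from -0.42 (without DBA/2J) to 0.35 (without D2B6F1). It moved the hybrid differences from -0.25 (without D2B6F1) to 0.0135 (without B6D2F1) for Hcrt and from -0.62 to 0.27 for Npvf. For Nts, r with Pmch was 0.0231 without TMM and 0.22 without the 2 farthest lines, r with Qrfp was 0.00733 in the second table and 0.0505 with GC offsets, and r with Hcrt was 0.17 with GC offsets. With the GC level the slope of Ttr on Hcrt was 2.59. With marker levels the slopes on Pmch were 0.0348 (Adora2a), 0.0463 (Cd4), 0.29 (Drd1a), 0.0191 (Penk) and 0.0666 (Rgs9). Adora2a, Drd1a and Rgs9 are part of the striatal level itself, so their slopes in this fit are no separate result. Over all alternatives, 853 slopes of named genes kept their side of the threshold, 193 lost it and 7 turned. With 11 to 99 reads per line, counting noise limits Qrfp most.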

Other observations

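With a GC trend removed from each library, an alternative added after seeing the data, the genes most alike to the members by Pearson's r over the 36 lines were partly others. For Hcrt, Oxt (0.89) and Pcsk1n (0.84) stayed first, and Tox2, Scand1 and Gas2l1 (0.80 to 0.82) took the next places. For Pmch, Cbln1 (0.72) and Nap1l5 (0.71) joined Cntn6, Ran and Adcyap1. For Qrfp, Adcyap1 (0.59) followed Nr0b1, Arhgap36, Cckbr and Fezf1. For Npvf, Uchl1 (0.70), a ubiquitin hydrolase of neurons, came first. With the GC level as a term, 79 genes passed with Npvf (0.489%), chosen for mention after their values were seen: Vbp1 rose by 0.14 ± 0.03 on the log2 scale per log2 unit of Npvf (adjusted p = 0.023), Uchl1 by 0.12 ± 0.02, and Ncan, the proteoglycan neurocan, had a slope of -0.28 ± 0.06. None of the 11 striatal genes had a positive slope on Qrfp or Npvf, with medians of -0.15 and -0.20 against 0.00 over all genes, and none passed the test.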
